A study of Mus musculus with 4 samples.

Results

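The Hox cluster genes were followed through 48 probe sets of 33 genes, out of 45037 probe sets that were not controls, 34945 of which the annotation pairs with a single gene (18193 genes in all). A probe set was taken where the platform annotation paired it with a single gene named Hoxa, Hoxb, Hoxc or Hoxd plus a paralog number, so no measured value chose the members. Cluster genes without a probe set of their own were not analysed here. A further 3 probe sets that the annotation assigns to a pair of Hox genes were left out.

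Hox genes encode homeodomain transcription factors that give cells of the embryo their position along the body axis and the limbs. They lie in 4 clusters, and within a cluster the order of the genes matches the order in which they are switched on in time and from head to tail. Genes of the same number in different clusters are paralogs of common origin. Low numbers sit at the 3′ end of a cluster and act anteriorly, high numbers sit at the 5′ end and act in the lumbar, sacral and tail regions and in distal limbs. Fibroblasts of the adult keep a set of active Hox genes that reflects where in the body they came from, and Polycomb and Trithorax proteins hold the silent and the active genes in their states.

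The cells were LMTK- fibroblasts, a mouse line without thymidine kinase that descends from L cells. L cells were derived from connective tissue under the skin of an adult mouse. There were 2 clones stably transfected with the plasmid pCI-neo carrying the mouse melanotransferrin cDNA (MTf 4 and MTf 6) and 2 lines with pCI-neo alone (vector 1 and vector 2). All 4 lines thus carried the same plasmid backbone, each MTf line is a single clone, and whether vector 1 and vector 2 are clones is not stated in the labels. Total RNA of each line was hybridised to 1 Affymetrix Mouse Genome 430 2.0 array, so precision is limited by the number of arrays, and the p-values reflect no more than the spread of these 4 samples, part of which may be technical. A difference in a bulk signal does not separate fewer expressing cells from less RNA per cell.

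Meltf, the melanotransferrin gene, gave signals of 1518.5 in MTf 4 and 1884.5 in MTf 6, against 265 in vector 1 and 274 in vector 2. On the scale of log2(signal + 32) the difference was 2.52 (SE 0.24, limma, adjusted p = 0.0903). Among fibroblast markers 8 of 10 lay above background in all 4 lines, among them Col1a2 and Vim, while Thy1 and Fap lay above it in none. Above background in all 4 lines were also Krt8, of 4 epithelial markers, and Csf1r, of 4 macrophage markers, but 0 of 3 endothelial, 0 of 4 neuron and 0 of 3 haematopoietic markers. Some markers passed background in fewer lines, namely Kdr and Adgre1 in 3, Epcam, Cd68 and Gata1 in 2 and Cdh5 in 1. For Epcam and Gata1 these 2 lines were the MTf clones. Median signals of the arrays lay between 209 and 214. The value table holds no detection calls, so a background was set on each array from 78 probe sets of olfactory and vomeronasal receptors. These are genes of sensory neurons that were taken as silent in fibroblasts. Any receptor that these lines do express would raise the background. Their 95th percentile was a signal of 233 for MTf 4 and 204 for MTf 6, against 293 for vector 1 and 234 for vector 2. A probe set above it was read as expressed, and a gene was counted in a line where any of its probe sets was above it. A signal under background does not show that a transcript is absent, and levels of different probe sets cannot be set against each other. Meltf lay under background in vector 1 and above it in the other lines, so the size of its difference is uncertain.

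In these fibroblasts 16 of the 33 Hox genes were above background in all 4 lines, 3 more in a single line and 14 in none. The expressed genes were grouped by paralog number. Of genes numbered 9 and 10, 6 of 7 were expressed in all 4 lines (Hoxa9, Hoxa10, Hoxb9, Hoxc9, Hoxc10 and Hoxd9). Of genes numbered 5 to 8 it was 6 of 9 (Hoxa5, Hoxa7, Hoxb6, Hoxc6, Hoxc8 and Hoxd8). Of genes numbered 1 to 4 it was 3 of 10, all of them in the Hoxb cluster (Hoxb2, Hoxb3 and Hoxb4). Of genes numbered 11 to 13 it was 1 of 7, Hoxb13. By probe set, 22 of 48 (45.8%) were above background in all 4 lines, against 40.8% of all probe sets on the array. The share of Hox probe sets was thus close to that of the array as a whole, and what the map of the 4 clusters shows is which genes these were.

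**Figure D1:**
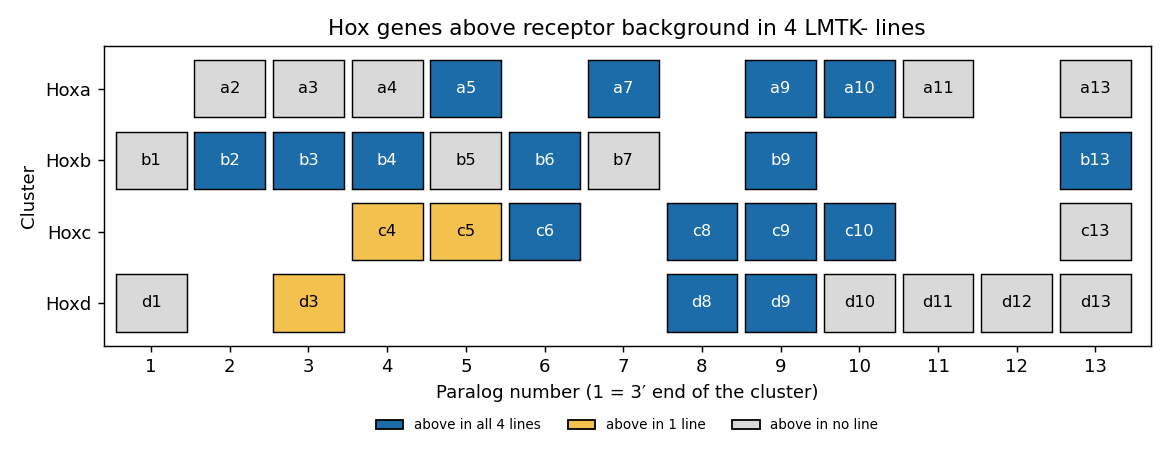
Each box is a Hox gene, placed by cluster (rows) and paralog number (columns). Blue boxes lay above receptor background in all 4 lines, yellow in 1 line and grey in none, and genes not analysed here are not drawn. The 16 blue genes lie mostly at numbers 5 to 10, with Hoxb2, Hoxb3, Hoxb4 and Hoxb13 outside that stretch.

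The 4 lines had the same 16 expressed genes and differed only in genes at the edge of background. MTf 6 and vector 1 had those 16 and no other. MTf 4 had 17, with Hoxc4 added at a signal of 245 against its background of 233. Vector 2 had 18, with Hoxc5 at 244 and Hoxd3 at 256 against its background of 234. These additions exceeded background by at most 1.09-fold. Hoxc5 read nearly the same in vector 1, at 242, but the background there was 293, so for Hoxc5 the backgrounds differed rather than the signals. Hoxb5 at 266 in vector 1 was likewise under background there, but over the level of every other array. The expressed probe set nearest to background was 1 of the 3 of Hoxc6, whose lowest line was 1.20-fold above it.

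The Hoxa cluster, with 9 measured genes over 98.5 kb of chromosome 6, was expressed from Hoxa5 to Hoxa10, with Hoxa6 not analysed here. Hoxa5, needed in the mouse for lung development and for the neck and upper chest skeleton, gave 1188 in MTf 4 and 1112.5 in MTf 6, against 1389.7 in vector 1 and 1297 in vector 2 by the probe set 1443803_x_at. Its other probe set, 1448926_at, read 505 and 372 in the clones, against 426 and 506 in the vector lines. All 8 of these signals were above background, and the suffix of the first probe set marks probes that can bind related transcripts. Hoxa7, which patterns the trunk, gave 1634 in MTf 4 and 849.8 in MTf 6, against 743 in vector 1 and 863 in vector 2. MTf 4 stood apart for this gene and the other 3 lines lay close together. Hoxa9, a patterning gene of the trunk and limb that is also active in blood stem cells, read 3653 in MTf 4 and 4789 in MTf 6, against 4211.5 in vector 1 and 4103 in vector 2 by 1455626_at. By 1421579_at it read 1439 and 1537 in the clones, against 1629 and 1468 in the vector lines. The lines overlapped by both probe sets of Hoxa9. Hoxa10, which acts in the lumbar skeleton and the uterus, gave 2677.5 in MTf 4 and 2514 in MTf 6, against 2988 in vector 1 and 2541 in vector 2 by 1431475_a_at. Its second probe set, 1446408_at, was under background in all 4 lines, at 98.1 and 166 in the clones, against 159.8 and 182 in the vector lines, so the 2 probe sets of this gene read differently.

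By these readings the expressed stretch of Hoxa ended at Hoxa10 on its 5′ side. Hoxa11, a gene of the forearm and uterus that lies 1.25 kb beyond Hoxa10, was under background in every line, at 113 in MTf 4 and 173 in MTf 6, against 175 in vector 1 and 105 in vector 2. Hoxd9 and Hoxd10 form a like boundary in the Hoxd cluster, with 2.66 kb between them. Hoxa11 and Hoxd10 each have a single probe set, so a boundary of expression and a probe set that reads poorly give the same picture. This was not tested. Promoter sequences are shown for the genes on either side of both boundaries, because these close neighbours fell on different sides of background in all 4 lines, Hoxa10 by 1 of its 2 probe sets. Each runs 5′ to 3′ on the gene's strand, from 250 bases before to 50 after an annotated start (RefSeq, GRCm38.p6), and capitals mark each CG dinucleotide, the element of CpG islands, which in mammals recruit Polycomb and Trithorax complexes.
Hoxa10, expressed, chr6:52240805-52241104, minus strand: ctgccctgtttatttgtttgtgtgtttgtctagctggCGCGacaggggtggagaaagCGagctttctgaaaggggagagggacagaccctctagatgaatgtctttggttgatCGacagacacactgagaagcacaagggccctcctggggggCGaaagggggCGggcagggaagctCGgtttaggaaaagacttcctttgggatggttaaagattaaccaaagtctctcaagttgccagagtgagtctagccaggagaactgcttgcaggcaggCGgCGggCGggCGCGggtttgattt
Hoxa11, under background, chr6:52245761-52246060, minus strand: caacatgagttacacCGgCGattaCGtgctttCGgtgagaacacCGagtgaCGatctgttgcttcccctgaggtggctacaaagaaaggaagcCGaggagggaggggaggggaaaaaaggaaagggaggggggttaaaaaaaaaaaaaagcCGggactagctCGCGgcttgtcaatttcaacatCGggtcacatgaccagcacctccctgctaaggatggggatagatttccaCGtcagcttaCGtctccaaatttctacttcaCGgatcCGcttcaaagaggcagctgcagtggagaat
Hoxd9, expressed, chr2:74697513-74697812, plus strand: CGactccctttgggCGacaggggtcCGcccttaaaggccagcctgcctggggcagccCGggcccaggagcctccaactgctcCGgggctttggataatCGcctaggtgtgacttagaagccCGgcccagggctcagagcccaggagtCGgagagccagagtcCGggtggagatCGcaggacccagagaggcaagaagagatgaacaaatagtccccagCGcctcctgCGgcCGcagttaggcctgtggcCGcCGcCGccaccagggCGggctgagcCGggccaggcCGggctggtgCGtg
Hoxd10, under background, chr2:74691641-74691940, plus strand: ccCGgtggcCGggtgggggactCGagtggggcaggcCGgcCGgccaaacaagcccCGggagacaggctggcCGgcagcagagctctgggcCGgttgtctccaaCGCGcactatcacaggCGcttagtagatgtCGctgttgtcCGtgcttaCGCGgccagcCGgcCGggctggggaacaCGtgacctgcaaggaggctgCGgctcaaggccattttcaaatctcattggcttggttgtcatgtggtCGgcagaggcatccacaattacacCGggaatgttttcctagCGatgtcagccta

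The windows held 12 CG dinucleotides in Hoxa10 and 15 in Hoxa11, and 20 in Hoxd9 and 22 in Hoxd10. The Hoxd10 window belongs to a start inside the gene's annotated span. Hoxa10 has such an inner start too, whose window (chr6:52234890-52235189) held 21, so the order of Hoxa10 and Hoxa11 depends on the start taken. All of these windows were richer in CG than the median of 7 over the 32851 promoter windows of the table. Windows at the annotated gene start were found for 7 of the expressed genes and 9 of the others. Their CG counts ran from 4 to 29 (median 12) in the expressed genes and from 4 to 45 (median 20) in the others, so the ranges overlapped. A motif of posterior HOX and CDX proteins, TTTATNG, was searched on both strands and occurred in 0 of these 16 windows, against 10.9% of all windows. A motif of HOX with PBX, TGATTNAT, occurred in 1 of them, that of Hoxa2, against 3.22% of all windows. Neither motif contains the other. These counts describe the letters of the windows only.

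At the 3′ side of Hoxa, Hoxa2, Hoxa3 and Hoxa4 were under background in all 4 lines by each of their 7 probe sets. Hoxa2 specifies the second pharyngeal arch, Hoxa3 the thymus and parathyroid, and Hoxa4 the neck vertebrae. At the far 5′ end Hoxa13, a gene of the digits and the urogenital tract, read 196 and 147 in the clones, against 105 and 126 in the vector lines, also under background.

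The Hoxb cluster, with 9 measured genes over 174 kb of chromosome 11, was expressed in a broken pattern. Hoxb2, a hindbrain gene needed for facial motor neurons, gave the steadiest signal of the expressed probe sets, at 1644 in MTf 4 and 1707 in MTf 6, against 1706.5 in vector 1 and 1704 in vector 2. Hoxb3, its hindbrain neighbour, was at 699 and 488 in the clones, against 659.7 and 531 in the vector lines by 1456229_at. Its second probe set, 1427605_at, passed background only in MTf 4, at 294 in MTf 4 and 141 in MTf 6, against 68.6 in vector 1 and 153 in vector 2. Hoxb4, known for expanding blood stem cells, read 426 and 343.5 in the clones, against 394 and 476 in the vector lines by 1451761_at. By 1460379_at it read 459 and 538 in the clones, against 532 and 454 in the vector lines. Hoxb4 was thus above background by both of its probe sets in every line. Hoxb6, a trunk gene, was at 904 and 1363 in the clones, against 1197 and 1037 in the vector lines. Hoxb9, which patterns the ribs, was at 869 and 1161 in the clones, against 1221 and 1108.5 in the vector lines. For both of these genes MTf 4 was the lowest of the 4 lines and MTf 6 lay between the vector lines (Hoxb9) or above them (Hoxb6).

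Between the expressed Hoxb genes, Hoxb5 and Hoxb7 were under background. Hoxb5, which acts in the enteric nervous system, read 176 and 112.5 in the clones, against 266 and 97.3 in the vector lines. Hoxb7 read 119 and 174 in the clones, against 105 and 102 in the vector lines. Each has a single probe set of its own, so a gap in expression and a probe set that reads poorly give the same picture, and this was not tested. The left-out probe set that Hoxb7 shares with Hoxb8, 1452493_s_at, was also under background in every line. It read 171.1 in MTf 4 and 103.4 in MTf 6, against 102.9 in vector 1 and 82.8 in vector 2. Hoxb1, a hindbrain gene at the 3′ end, was also under background.

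Hoxb13, a gene of the tail and the prostate that lies 74.7 kb from Hoxb9, was expressed in all 4 lines. It read 1582 in MTf 4 and 1181.5 in MTf 6, against 1075 in vector 1 and 1039.9 in vector 2. All 4 signals were at least 3.67-fold above the background of their array. The other 6 measured genes numbered 11 to 13 were under background in every line, and Hoxb13 has only this probe set.

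The Hoxc cluster, with 7 measured genes over 116 kb of chromosome 15, was expressed from Hoxc6 to Hoxc10. Hoxc6, a gene of the thoracic spine, was above background by all 3 of its probe sets. By 1427361_at it read 1032 in MTf 4 and 856 in MTf 6, against 924 in vector 1 and 842 in vector 2. By 1427362_x_at it read 1038 and 749.8, against 832 and 1163, and by 1427454_at 289 and 375.5, against 388.5 and 279.6, in the same order of lines. No line was highest by more than 1 of the 3. Hoxc8, a gene of the lower chest and of motor neurons to the forelimb, was at 1351 and 1586 in the clones, against 1376 and 1431 in the vector lines. Hoxc9, which separates thoracic from limb motor neurons, was at 1085 and 887 in the clones, against 555 in vector 1 and 820.3 in vector 2. Hoxc10, a lumbar gene, was at 1225 and 1334 in the clones, against 1076 and 1215 in the vector lines. For Hoxc9 and Hoxc10 both clones lay above both vector lines, for Hoxc10 with 1225 in the lower clone against 1215 in the higher vector line.

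The remaining Hoxc genes were at or under background. Hoxc4, a gene of the cervical region, read 245 in MTf 4 and 25.3 in MTf 6, against 55.9 in vector 1 and 62.6 in vector 2. Hoxc5 read 204 and 135 in the clones, against 242 and 244 in the vector lines by its brightest probe set, 1439885_at, and its other 2 were under background throughout. Hoxc13, a gene of hair and nails, lay between 10.5 and 28.8.

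The Hoxd cluster, with 8 measured genes over 96.9 kb of chromosome 2, had only Hoxd8 and Hoxd9 above background in all 4 lines. Hoxd8, a trunk gene, read 3208 in MTf 4 and 2806.5 in MTf 6, against 2519 in vector 1 and 3382 in vector 2 by 1431099_at. By 1433638_s_at it read 1889.8 and 1199 in the clones, against 1370.0 and 1371 in the vector lines. Hoxd9, which acts in the limb and the lumbosacral region, gave 3229 in MTf 4 and 2001 in MTf 6, against 2515 in vector 1 and 2625 in vector 2. For Hoxd9 the clones were the highest and the lowest of the 4 lines. Beyond it, Hoxd10 to Hoxd13, the genes of the distal limb and the external genitalia, were under background by all 5 of their probe sets. Hoxd10 itself, next to Hoxd9, read 98.6 and 79.4 in the clones, against 66.9 and 14.4 in the vector lines. On the 3′ side Hoxd3, by its own probe set, passed background only in vector 2, and Hoxd1 in no line. Of the left-out probe sets that Hoxd3 shares with Hoxd4, 1421537_at read 321 in MTf 4 and 434 in MTf 6, against 392.2 in vector 1 and 186.5 in vector 2, above background in every line but vector 2. The other, 1450209_at, passed it only in vector 2, so the state of Hoxd3 is uncertain. Hoxd1 read 9.2 and 6.7 in the clones, against 54.4 and 75.5 in the vector lines, far under background in all.

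**Figure D2:**
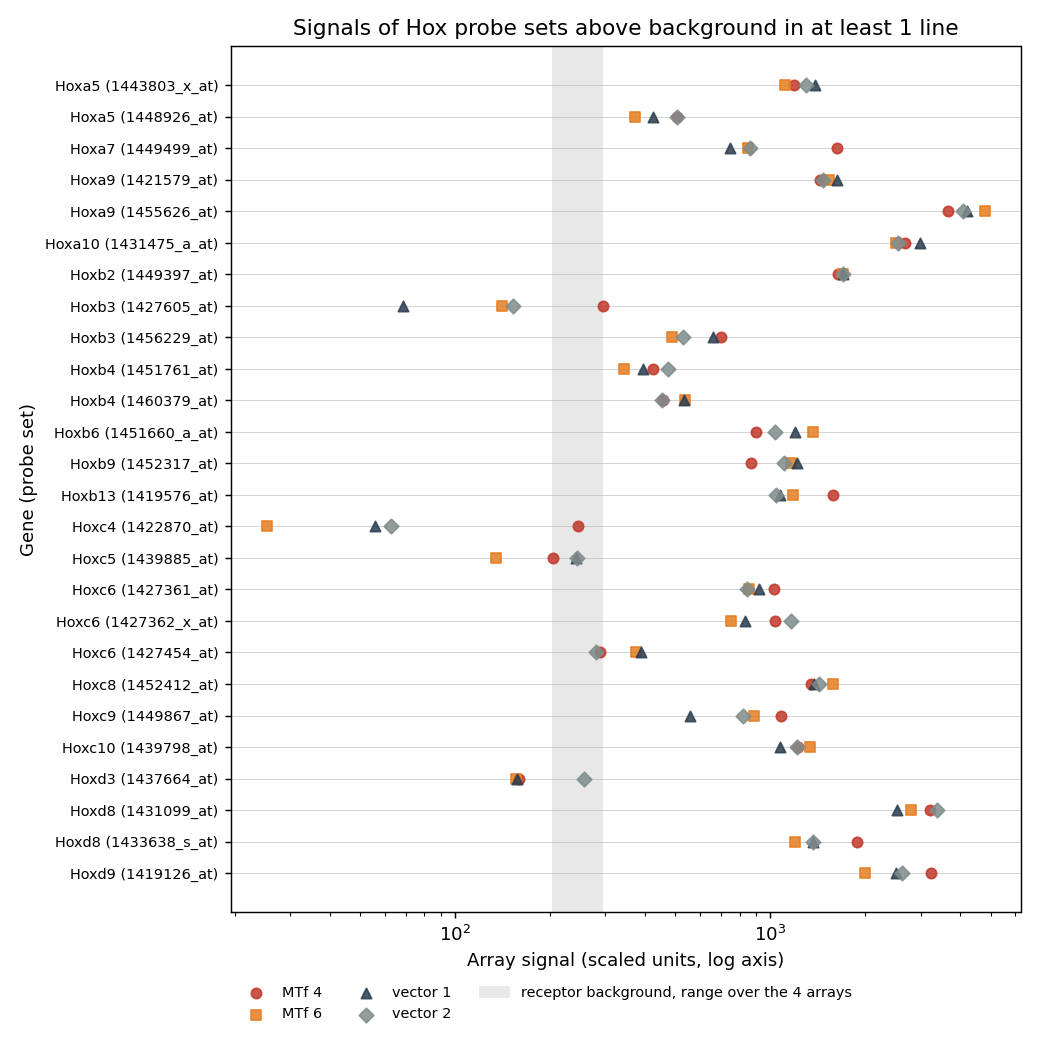
Array signal (log axis) of the 26 Hox probe sets above background in at least 1 line, with 1 symbol per line and the range of the receptor background over the 4 arrays in grey. The symbols of most probe sets lie close together and to the right of the grey band, MTf 4 stands apart for Hoxa7, and Hoxc4, Hoxc5, Hoxd3 and the second probe set of Hoxb3 lie at or left of the band. Hoxc6 by 1427454_at touches its upper edge, although each line exceeds the background of its own array.

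The probe sets above background in no line, 22 in all, had signals between 2.8 and 266 with a median of 88.4. Among them the highest line was at least 2-fold above the lowest in 13 (59.1%), a share near the 57.3% of all probe sets on the array that lay above background in no line. Differences between lines among these dim members are given no reading here.

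The expressed Hox genes differed little between the 4 lines. On the scale of log2(signal + 32), on which every fold and difference is given from here on and which understates changes of dim probe sets, the highest line exceeded the lowest by a median of 0.43 over the 22 expressed probe sets. Over all 18361 probe sets above background in every line that median was 0.46. The range reached from 0.05 for Hoxb2 to 1.10 for Hoxa7. It was under 1.5-fold in 16 of 22 probe sets (72.7%), against 67.0% of all, and at least 2-fold in 1 (4.55%), against 6.4% of all. The spread of the Hox probe sets was thus near that of expressed probe sets in general. Each line was hybridised once, so differences between single lines have no replicate check.

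**Figure D3:**
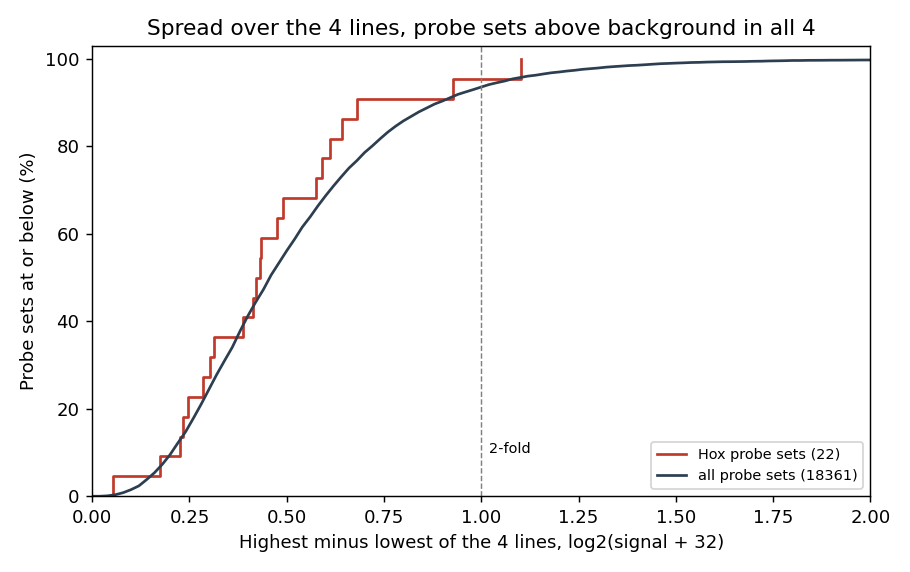
Share of probe sets (vertical, percent) whose highest line exceeds the lowest by no more than the value on the horizontal axis, for the 22 Hox probe sets above background in all 4 lines (red steps) and for all 18361 such probe sets (dark line). The 2 curves run close together, and 1 Hox probe set lies beyond 2-fold.

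Hoxa7 was the only expressed probe set past 2-fold, through MTf 4. Its signal there was 2.15-fold that of vector 1, and in MTf 6 it lay between the 2 vector lines. Between that pair, MTf 4 and vector 1, 1 of the 22 Hox probe sets differed at least 2-fold, against 2.36% of all expressed probe sets. In each of the other 5 pairs of lines it was 0 of 22. The array-wide shares in those pairs were 2.95% between MTf 4 and MTf 6, 1.42% between vector 1 and vector 2, 0.986% between MTf 4 and vector 2, 0.73% between MTf 6 and vector 1 and 2.17% between MTf 6 and vector 2. Counting also probe sets above background in only some lines, 3 genes differed at least 2-fold, with Hoxb3 (1427605_at) and Hoxc4 beside Hoxa7, where 18.6% of all such probe sets on the array did. Those added members entered the count only because MTf 4 passed background, by at most 1.26-fold, and their other lines lay under it, so no fold is given and nothing is read from them. Without MTf 4 the count of genes was 0. Without vector 1 it was 1, and that gene was Hoxc4, so the 2-fold range of Hoxa7 rested on vector 1 as well as on MTf 4.

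Probe sets of the same gene often disagreed on small differences between lines. Of the genes with several expressed probe sets there were 5 (Hoxa5, Hoxa9, Hoxb4, Hoxc6 and Hoxd8), and in all 5 the probe sets named different lines as the highest. In 3 of the 5 (Hoxa9, Hoxb4 and Hoxc6) they also gave different signs to the difference between clones and vector lines, while the sign was the same for Hoxa5 and Hoxd8. The lowest line was the same by both probe sets of Hoxa5 (MTf 6) and of Hoxa9 (MTf 4). No line was high throughout. MTf 4 was the highest line for 7 of the 22 expressed probe sets and the lowest for 6, MTf 6 for 6 and 8, vector 1 for 5 and 4, and vector 2 for 4 and 4.

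The comparison of clones with vector lines asks whether Hox expression differed with melanotransferrin, and none of the Hox probe sets was called. Probe sets with a mean at or above the median were tested, 22519 in all, and 23 Hox probe sets of 17 genes were among them. With limma and Benjamini-Hochberg adjustment 0 of the 23 passed a threshold of 0.05, and the smallest adjusted p was 0.9998, against 0.00444% called over all tested probe sets. At an unadjusted 0.05 it was also 0 of 23, against 1.9% of all tested. Differences of MTf minus vector were positive in 10 and negative in 13, with a median of -0.0043, against -0.0068 over all tested probe sets. Their median size regardless of sign was 0.09 on the log2 scale, against 0.14 over all tested. The outer ends of the 95% intervals lay at -1.29 (Hoxc5) and 1.29 (Hoxa7), and all 23 included 0. With 2 arrays per group an exact permutation test cannot give a two-sided p under 0.333. Meltf itself did not pass the threshold (limma, adjusted p = 0.0903), so the count of 0 does not show that Hox expression was unchanged. Each MTf line is a single clone, so differences between clones and an effect of melanotransferrin cannot be told apart.

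Hoxc9 had the smallest p of the 23 tested members. It averaged 986 ± 139.9 (SD, n = 2) for the MTf clones and 688 ± 187 (SD, n = 2) for vector, a log2 difference of 0.52 with a 95% interval of -0.11 to 1.14 (limma, adjusted p = 0.9998). Without vector 1 that difference was 0.25 and without vector 2 it was 0.79. Hoxa7 averaged 1242 ± 554 (SD, n = 2) for the MTf clones and 803 ± 84.6 (SD, n = 2) for vector, a difference of 0.54 that overlapped between the groups (limma interval -0.21 to 1.29). It was 0.08 without MTf 4 and 1.00 without MTf 6, so it rested on MTf 4. Hoxb13 averaged 1382 ± 283 (SD, n = 2) for the MTf clones and 1058 ± 25.0 (SD, n = 2) for vector, a difference of 0.36 with an interval of -0.18 to 0.90, and it was 0.16 without MTf 4 and 0.57 without MTf 6. Hoxc5 by 1439885_at was above background only in vector 2, so no size is given for its difference. Both clones lay above both vector lines in 3 of the 23 (13%; Hoxb13, Hoxc9 and Hoxc10), against 12.2% of all tested probe sets. Both lay below in 2 of 23 (8.7%; Hoxa5 by 1443803_x_at and Hoxc5), against 13.6%. These shares are close to or under those of the whole array.

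**Figure D4:**
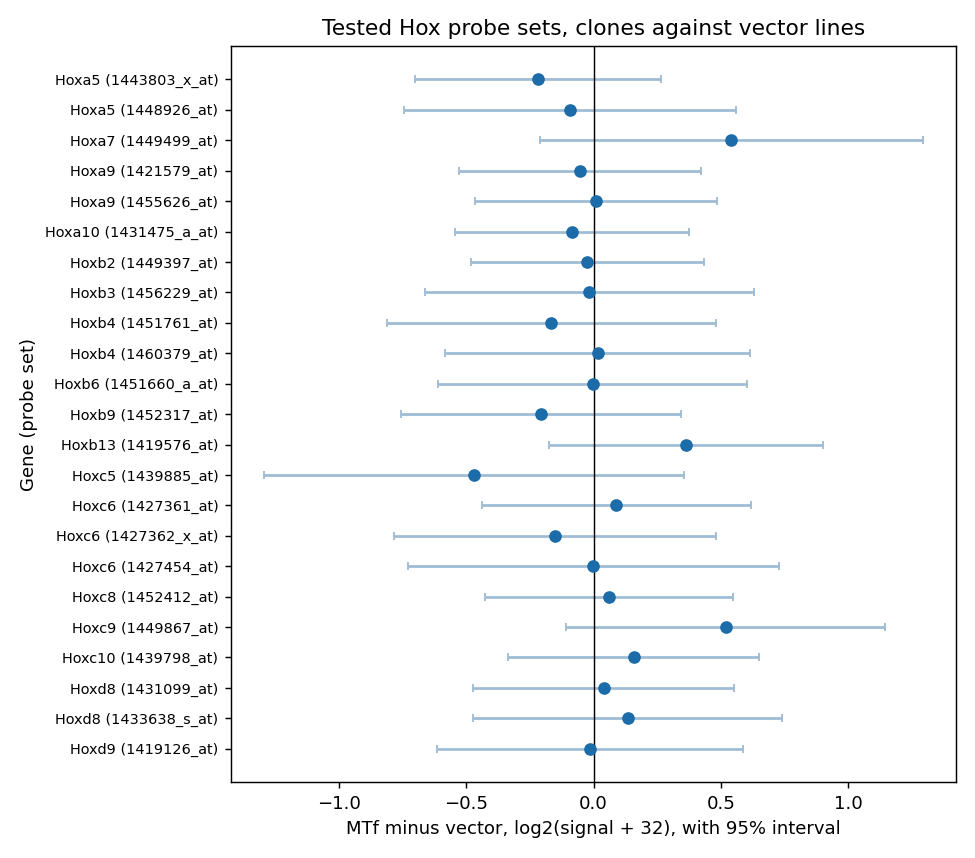
Difference of MTf minus vector (points) with its 95% interval from limma (bars), on the scale of log2(signal + 32), for the 23 tested Hox probe sets. All 23 intervals include 0, with Hoxa7 and Hoxc9 farthest above it. Hoxc5 was above background in 1 line only.

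The 25 Hox probe sets under the filter were fitted together with all probe sets, and 0 of them was called (limma, smallest adjusted p = 0.9999). At an unadjusted 0.05 there were 3 of 25, of Hoxa2, Hoxd1 and Hoxd13, against 5.71% of all probe sets under the filter. Every signal of these 3 was under background, so they get no fold.

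Genes that act with Hox proteins or keep them on or off were read from lists chosen for their known roles. A gene counted as above background in a line where any of its probe sets was, and its difference came from its brightest probe set. The list of TALE homeodomain genes held the Pbx, Meis and Pknox cofactors, which bind DNA together with Hox proteins, and also Tgif1 and Tgif2. Of 10 measured 7 were above background in all 4 lines, namely Pbx2, Meis1, Meis2, Meis3, Pknox1, Tgif1 and Tgif2. Of 7 tested, Tgif1 and Tgif2 included, 0 passed (1 higher, 6 lower, median -0.04, against -0.01 over all tested probe sets). Meis3 differed by -0.43, Meis2 by -0.31 and Meis1 by -0.09. Of the Polycomb genes 23 of 26 measured were above background in all 4 lines, and 0 of 25 tested passed (14 higher, 11 lower, median 0.01). Rbbp7, a histone-binding subunit, differed by -0.33, Ezh2, the histone methyltransferase, by -0.42 and Kdm2b, which binds CpG islands, by -0.25. Of the Trithorax genes and other activators all 12 measured were above background, and 0 of 12 passed (9 higher, 3 lower, median 0.09). Kmt2d and Kmt2c, histone methyltransferases, differed by 0.21 and 0.18, and Kdm6b, which removes the Polycomb mark, by 0.21.

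Among known upstream regulators of Hox genes 5 of 14 measured were above background in all 4 lines, namely Rarg, Rxra, Rxrb, Gmnn and Ctcf, while the 3 Cdx genes, which switch on Hox genes in the embryo, were above it in none. Of 6 tested 0 passed (1 higher, 5 lower, median -0.13). Rarg, a retinoic acid receptor, gave 1925 in MTf 4 and 1795 in MTf 6, against 1097 in vector 1 and 1574 in vector 2, a log2 difference of 0.49 with an interval of -0.07 to 1.05. Rxrb differed by -0.33 and Ctcf, which separates chromatin domains, by -0.19. Of genes inside or beside the clusters 14 of 22 measured were above background in all 4 lines and 0 of 16 tested passed (5 higher, 11 lower, median -0.06). Calcoco1 differed by 0.45 and Lnpk by -0.40. Evx2, beyond Hoxd13, was above background in 3 lines and just under it in MTf 4, at 231.5 against 232.9, so no size is given for its difference. The antisense RNAs Hoxa11os and Hoxb5os, named for Hoxa11 and Hoxb5, were under background as those genes were.

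Of other transcription factors of position in limb, trunk and head mesenchyme, 8 of 35 measured were above background in all 4 lines. A gene counted here by any of its probe sets, so the 40.8% of all single probe sets is not a like share. The 8 were Prrx1, Tbx3, Tbx15, Tbx18, Shox2, Twist2, Msx1 and Dlx2, whereas Tbx4, Tbx5 and Pitx1, factors of limb type, were above background in none. Of 12 tested 0 passed (5 higher, 7 lower, median -0.05). Twist2, a dermal fibroblast factor, read 2555 in MTf 4 and 2817 in MTf 6, against 3740.5 in vector 1 and 3484 in vector 2, a log2 difference of -0.42 with an interval of -0.86 to 0.02. Emx2 was above background in 3 lines and Irx5 only in both clones, so no size is given for their differences. Over these 6 lists 0 of the tested genes was past an unadjusted 0.05 in limma, where 1.9% of all tested probe sets were. Among untested genes, Alx4 and Pitx1 were past it in the fit without the filter, where 5.71% of all probe sets under the filter were. Alx4 was above background only in both clones and Pitx1 in no line, so no size is given for either.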

How the data were processed

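The study measured total RNA of 4 LMTK- lines on Affymetrix Mouse Genome 430 2.0 arrays. The deposited file gives each probe set 1 linear intensity per array; per the submitters' processing notes the authors used GCOS 1.3, and its settings are not stated in the sources. All arrays had the same 2%-trimmed mean, near 1000, so values were used as deposited. Groups came from the labels, which give no batch.

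The 64 control probe sets were left out. Signals were converted to log2(signal + 32), and probe sets with a mean at or above the median (a signal of about 196) were tested. MTf minus vector was fitted with limma 3.58.1 in R 4.3.3 (lmFit, eBayes with a trend), adjusted by Benjamini-Hochberg over all 22519 probe sets. The code of the fit was run on simulated data with independent normal errors. Those data held no differences between clones, so the run lends no support to the results here. Genes came from the platform annotation, order and promoters from RefSeq GRCm38.p6.

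Named with values were members above receptor background in at least 1 line, and up to 3 genes of each related list by smallest p; genes named for being above or under background, and dim members, were added after their values were seen. Members and lists were chosen with earlier results of these data known. Alternatives covered the offset, filter, trend, normalization, background, probe set suffixes and each array left out.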

Additional observations from a re-analysis of the deposited data

How the results depend on the processing

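The 16 expressed Hox genes were the same 16 with the 99th percentile of the receptors or the array median as background. The median was the looser level on all arrays but MTf 6. They were also the same without probe sets of the suffix _x_at or _s_at, and without each array in turn. Those checks could not come out otherwise. Hoxa5, Hoxc6 and Hoxd8 each keep another probe set above background throughout. Background is set per array, and every other gene passed it in at most 1 line. The count of Hox probe sets called by limma stayed at 0 with offsets of 16 and 64, quantile normalization, no filter, no trend, robust eBayes and each array left out; leaving out an array leaves 1 in a group, assumed to vary like the other group. The count of genes past 2-fold was 3 with the other offsets, with quantile normalization and without those suffixes. It was 10 at 1.5-fold and, in an alternative added after the data were seen, 1 among probe sets above background in all 4 lines. With 1 array left out it lay between 0 and 3. Of 101 single differences under other offsets, no filter or quantile normalization 100 kept their sign, and Hoxc6 by 1427454_at, -0.00099 as reported, was 0.029 after quantile normalization. Of 26 probe sets 17 changed sign with some array left out, and the cause was not tested. With 1 array left out in turn, the log2 difference lay between -0.30 and 0.11 for Hoxa5 by 1448926_at, between -0.13 and 0.018 for Hoxa9 by 1421579_at, between -0.18 and 0.20 for Hoxa9 by 1455626_at, between -0.20 and 0.03 for Hoxa10 by 1431475_a_at, between -0.051 and 0.0015 for Hoxb2 by 1449397_at and between -0.26 and 0.23 for Hoxb3 by 1456229_at. It lay between -0.093 and 0.12 for Hoxb4 by 1460379_at, between -0.29 and 0.28 for Hoxb6 by 1451660_a_at, between -0.67 and 1.60 for Hoxc4 by 1422870_at, between -0.041 and 0.22 for Hoxc6 by 1427361_at, between -0.39 and 0.082 for Hoxc6 by 1427362_x_at and between -0.22 and 0.22 for Hoxc6 by 1427454_at. For the rest it lay between -0.053 and 0.17 for Hoxc8 by 1452412_at, between -0.60 and 0.0087 for Hoxd3 by 1437664_at, between -0.17 and 0.25 for Hoxd8 by 1431099_at, between -0.19 and 0.45 for Hoxd8 by 1433638_s_at and between -0.36 and 0.33 for Hoxd9 by 1419126_at. The sizes for Hoxc4 and Hoxd3 have no meaning as folds, since each was above background in 1 line only. No difference under any of these settings passed the threshold. No paired analysis was possible because the groups share no replicate numbers. Dim signals limit what can be said of the 14 genes under background.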
